A study of Homo sapiens with 8 samples.

Results

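The integrin and laminin subunit genes were described in RNA-seq libraries of MHCC-97H and MHCC-97L, human hepatocellular carcinoma lines of high (H) and low (L) metastatic potential. Members were chosen by symbol alone, as every integrin alpha gene, every integrin beta gene and every numbered laminin alpha, beta or gamma gene in the table. This gave 38 of the 18902 genes analysed, 18 integrin alpha, 8 integrin beta and 12 laminin genes. There were 4 groups of 2 libraries each, MHCC-97H with Flag-OGT, MHCC-97H control, MHCC-97L with Flag-OGT and MHCC-97L control. Flag-OGT is O-GlcNAc transferase with a Flag tag at its C-terminus, expressed stably. The enzyme adds N-acetylglucosamine to serines and threonines of proteins inside the cell. It was delivered with a lentiviral vector, and the cells were selected with neomycin. The controls carry no genotype label, and the sources used here do not say whether they held an empty vector or had been through the same selection. The labels name no separate clones or cultures, so the p-values below measure only the spread between the 2 libraries of a group, which may be technical. The study concerns OGT at chromatin and its link to the transcription factor ZNF263 in this cancer.

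Integrins are cell-surface receptors made of an alpha and a beta subunit. The alpha subunit largely sets the ligand, which can be laminin, collagen, a protein with the Arg-Gly-Asp (RGD) sequence such as fibronectin, or a partner on another cell, and the beta subunit links the receptor to the cytoskeleton. Laminins are cross-shaped trimers of an alpha, a beta and a gamma chain and form the sheet of basement membranes to which epithelial cells attach through laminin-binding integrins. Hepatocytes normally face a sparse matrix, and gain of laminin and of laminin-binding integrins is a known feature of hepatocellular carcinoma.

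The libraries stood apart by Flag-OGT more than by line. Over the tested genes, the correlation of log2(FPKM + 1) was 0.997 to 0.999 within a group, 0.957 to 0.963 between the lines in the same state, and 0.725 to 0.753 between Flag-OGT and control libraries of the same line. OGT itself was at 59.04 and 58.38 FPKM in MHCC-97H cells with Flag-OGT, against 32.53 and 34.16 FPKM in controls of MHCC-97H, and at 50.95 and 54.54 FPKM in MHCC-97L cells with Flag-OGT, against 45.73 and 43.9 FPKM in controls of MHCC-97L. A list of 18 hepatocyte genes, among them the keratins KRT8 and KRT18, summed to between 25.2 and 38.6 FPKM in the 4 Flag-OGT libraries, against 5471 to 6485 FPKM in the 4 controls. These 2 keratins made up 96.6% to 97.9% of the control sums, and the other 16 genes summed to 7.18 to 12.9 FPKM with Flag-OGT, against 116 to 220 FPKM in controls. Of the 15 that were tested, 2 were higher and 11 lower with Flag-OGT in MHCC-97H, and 1 was higher and 14 lower in MHCC-97L. Of all tested genes, 36.3% were lower in MHCC-97H and 34.7% in MHCC-97L. Of the 15, 8 reached a mean of 0.5 FPKM, the filter for testing, over the controls alone and 1 over the Flag-OGT libraries alone. The filter favoured the direction of these. The 6 that reached it in both states had 1 higher and 4 lower in MHCC-97H, and all 6 lower in MHCC-97L. HNF4A, a defining transcription factor of hepatocytes, was at 0.01 to 0.04 FPKM with Flag-OGT, against 13.4 to 14.63 FPKM in the controls. The urea cycle gene CPS1 was higher in both lines, at 2.59 to 8.79 FPKM with Flag-OGT, against 0 to 0.03 FPKM in controls, and the asialoglycoprotein receptor gene ASGR1 was higher in MHCC-97H (0.47, adjusted p = 1.1e-03) and lower in MHCC-97L (-0.23, adjusted p = 0.0437). By these markers the Flag-OGT libraries went against the labelled cell type, and they were closer to each other across lines than to the controls of their own line. Whether they hold RNA of the labelled lines was not tested, and this bears on every value below that sets Flag-OGT against control. In addition, a smaller share of one kind of cell cannot be told apart from less RNA per cell in bulk libraries.

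Most of the tested receptor genes fell with Flag-OGT in both lines, whereas the tested laminin genes were divided between higher and lower. A gene was tested where its mean over the 8 libraries reached 0.5 FPKM, which held for 26 of the 38 members, 12 integrin alpha, 4 integrin beta and 10 laminin genes. In MHCC-97H, 7 of the 26 rose and 18 fell with Flag-OGT by limma at a Benjamini-Hochberg adjusted p under 0.05. Of all 13553 tested genes, 84.6% were called in that comparison, 48.2% higher and 36.3% lower. In MHCC-97L, 6 rose and 16 fell, with 84.8% of all tested genes called, 50.1% higher and 34.7% lower. The share of members called at all was therefore close to that of all genes. The median log2 change of the 26 was -1.35 in MHCC-97H and -1.04 in MHCC-97L, beside 0.15 and 0.19 for all tested genes. Changes are given on the log2(FPKM + 1) scale, which understates those of low genes. Members that passed the filter only through the state in which they were high were bound to lean one way. For this the mean of each state was taken over the libraries of both lines. Among the tested members, ITGA2B, LAMA1 and LAMC3 reached 0.5 FPKM as a mean in Flag-OGT libraries alone, and 6, among them ITGA10, ITGA11, ITGAM, ITGB7 and LAMB3, in controls alone. The filter favoured a rise of those 3 and a fall of those 6. Of the other 17, which reached it in both states, MHCC-97H had 4 higher and 12 lower, and MHCC-97L had 3 higher and 11 lower.

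The direction was the same in both lines for most members. How many of all tested genes went the same way in both lines was not counted, so this cannot be called particular to the members. There were 16 members that fell in both, 8 integrin alpha genes, all 4 tested integrin beta genes and 4 laminin chains. Among them, ITGA10, ITGA11, ITGAM, ITGB7 and LAMB3 passed the filter through controls alone. The 4 members that rose in both were ITGA2B, LAMA1, LAMB2 and LAMC3. All of these but LAMB2 passed the filter through Flag-OGT libraries alone. The remaining 6, among them ITGA1 and ITGAE, differed between the lines and are taken up below.

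The laminin-binding receptors lost the most among the abundant alpha genes. ITGA3, whose product pairs with ITGB1 to bind laminins of epithelia, was at 3.07 and 2.9 FPKM in MHCC-97H cells with Flag-OGT, against 101.8 and 91.99 FPKM in its controls, and at 2.71 and 2.37 FPKM in MHCC-97L cells with Flag-OGT, against 103.73 and 104.09 FPKM in the controls. It was the most abundant alpha gene in every control library and low in every Flag-OGT library. Mean FPKM was 32.5-fold lower with Flag-OGT in MHCC-97H (log2 change -4.62 ± 0.07, SE; limma adjusted p = 4.5e-12) and 40.9-fold lower in MHCC-97L (-4.89 ± 0.07, adjusted p = 3.6e-12). ITGA6, which pairs with ITGB4 in hemidesmosomes or with ITGB1 elsewhere, was at 2.33 and 2.02 FPKM with Flag-OGT, against 34.34 and 38.57 FPKM in controls of MHCC-97H. The MHCC-97L cells had 0.7 and 1.02 FPKM with Flag-OGT, against 16.22 and 15.75 FPKM in controls. It fell by 3.56 and by 3.20 on the log2 scale in MHCC-97H and MHCC-97L (adjusted p = 1.9e-10 and 5.0e-10), and its groups did not overlap in either line. Mean FPKM of ITGA6 was 16.8-fold lower in MHCC-97H and 18.6-fold lower in MHCC-97L. ITGA7, the laminin receptor alpha chain best known from muscle, had only low values. It was at 1.8 and 2.12 FPKM with Flag-OGT, against 0.85 and 0.89 FPKM in controls of MHCC-97H, a rise of 0.66 ± 0.08 (adjusted p = 1.8e-05). MHCC-97L cells had 1.73 and 1.55 FPKM with Flag-OGT, against 1.82 and 1.89 FPKM in controls (-0.11, adjusted p = 0.194), a difference that was called with FPKM rescaled to a common sum (-0.19, adjusted p = 0.0473) and with median-of-ratios scaling (-0.24, adjusted p = 0.0146).

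The beta partners of these receptors fell together. ITGB1, the most widely used beta chain, partner of laminin, collagen and fibronectin receptors, was at 15.59 and 15.23 FPKM with Flag-OGT, against 175.77 and 184.46 FPKM in controls of MHCC-97H. The MHCC-97L cells had 15.68 and 18 FPKM with Flag-OGT, against 89.2 and 91.01 FPKM in controls. The 4 Flag-OGT libraries lay between 15.23 and 18 FPKM, while the MHCC-97H controls were well above the MHCC-97L controls. The fall was 11.7-fold in MHCC-97H (-3.46 ± 0.07, adjusted p = 1.7e-11) and 5.35-fold in MHCC-97L (-2.36 ± 0.07, adjusted p = 3.1e-10). ITGB4, which binds keratin filaments through plectin in hemidesmosomes, was at 0.64 and 0.6 FPKM with Flag-OGT, against 58.21 and 50.33 FPKM in controls of MHCC-97H, and at 0.62 and 0.39 FPKM with Flag-OGT, against 50.01 and 53.65 FPKM in controls of MHCC-97L. It had the lowest log2 change of the 26 tested members in either line, -5.09 ± 0.09 in MHCC-97H (adjusted p = 1.3e-11) and -5.14 ± 0.09 in MHCC-97L (adjusted p = 1.4e-11). ITGB5, a partner of ITGAV in vitronectin binding, was reduced less than ITGB4 in both lines and less than ITGB1 in MHCC-97H alone. Its values were 17.54 and 17.94 FPKM with Flag-OGT, against 88.18 and 85 FPKM in controls of MHCC-97H, and 11.57 and 10.87 FPKM with Flag-OGT, against 62.4 and 64.53 FPKM in controls of MHCC-97L. The fall was 4.88-fold in MHCC-97H (adjusted p = 1.1e-10) and 5.66-fold in MHCC-97L (adjusted p = 7.1e-11). ITGB7, a beta chain of lymphocyte homing receptors, was at 0.05 and 0.04 FPKM with Flag-OGT, against 1.93 and 1.33 FPKM in controls of MHCC-97H, and at 0.47 and 0.36 FPKM with Flag-OGT, against 3.35 and 3.79 FPKM in controls of MHCC-97L. It fell in both lines (-1.32, adjusted p = 9.2e-07, and -1.69, adjusted p = 1.4e-07).

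**Figure D1:**
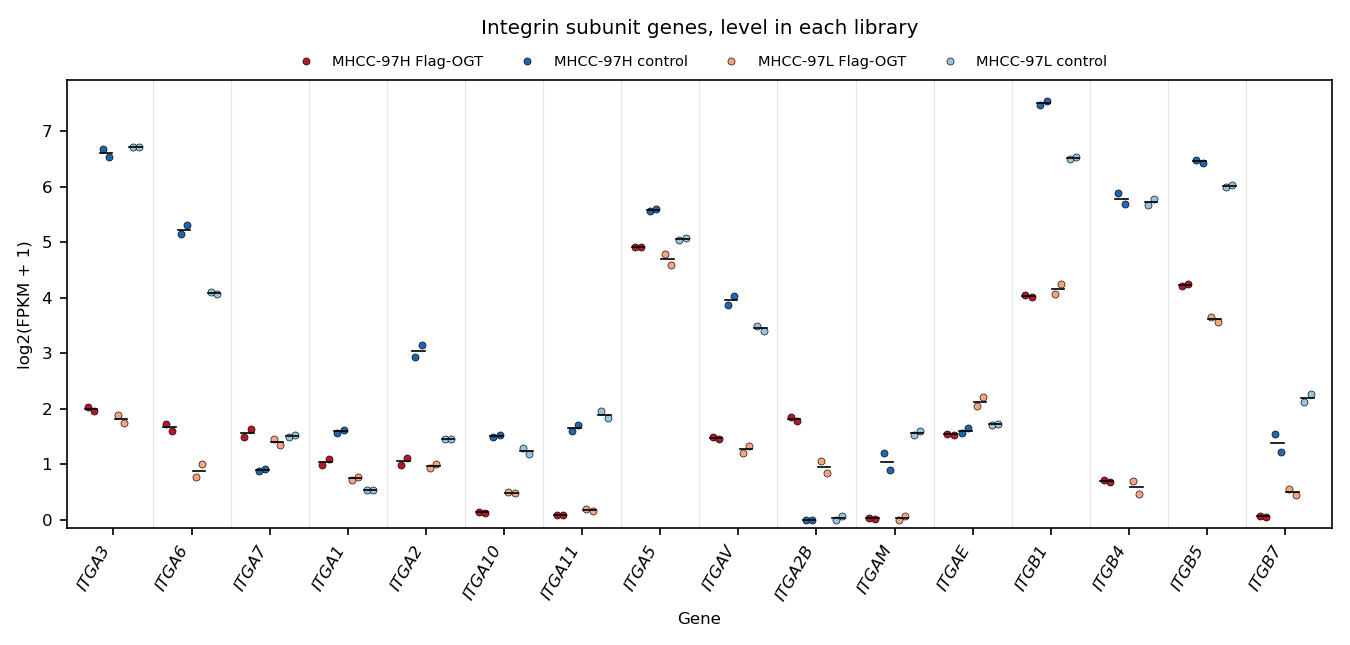
Level of each tested integrin gene as log2(FPKM + 1) in all 8 libraries, with 1 point per library, a bar at the mean of each group, and the Flag-OGT group left of its control for each line. The Flag-OGT points of ITGA3, ITGA6, ITGAV, ITGB1, ITGB4 and ITGB5 lie far below the control points in both lines, whereas those of ITGA2B lie above.

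The fibronectin receptor gene ITGA5, which pairs with ITGB1, moved least among the abundant alpha genes. It was at 29.18 and 29.29 FPKM with Flag-OGT, against 46.04 and 47.31 FPKM in controls of MHCC-97H, and at 26.56 and 23.14 FPKM with Flag-OGT, against 31.88 and 32.55 FPKM in controls of MHCC-97L. The groups did not overlap, and mean FPKM was 1.6-fold lower in MHCC-97H (-0.66 ± 0.07, adjusted p = 5.7e-06) and 1.3-fold lower in MHCC-97L (-0.36 ± 0.07, adjusted p = 5.1e-04). ITGAV, the alpha chain of several vitronectin and TGF-beta-activating receptors, was at 1.83 and 1.74 FPKM with Flag-OGT, against 13.6 and 15.36 FPKM in controls of MHCC-97H, and at 1.32 and 1.53 FPKM with Flag-OGT, against 10.23 and 9.58 FPKM in controls of MHCC-97L. It fell 8.11-fold in MHCC-97H and 6.95-fold in MHCC-97L (adjusted p = 7.7e-10 and 2.5e-09). ITGA2B, the alpha chain of the platelet fibrinogen receptor, was at 2.6 and 2.42 FPKM with Flag-OGT, while both MHCC-97H controls were listed at 0. MHCC-97L had 1.09 and 0.8 FPKM with Flag-OGT, against 0 and 0.05 FPKM in controls. It rose in both lines (1.81 ± 0.08, adjusted p = 1.0e-08, and 0.92 ± 0.08, adjusted p = 2.4e-06), and no fold is given against a group at or near 0. Its known partner ITGB3 was at 0 to 0.25 FPKM in all libraries. The 5 platelet marker genes with values summed to 1.9 and 2.23 FPKM with Flag-OGT, against 1.83 and 1.82 FPKM in controls of MHCC-97H, and to 2.52 and 2.92 FPKM with Flag-OGT, against 4.72 and 4.66 FPKM in controls of MHCC-97L. Of them PF4 fell in both lines (-0.50 and -1.89), and GP6 was called in MHCC-97L alone (-0.04, adjusted p = 0.75 in MHCC-97H and 0.35, adjusted p = 0.0151 in MHCC-97L). PF4 reached the filter of 0.5 FPKM as a mean over the controls alone, which favoured its fall. GP1BA, a platelet receptor gene that was not tested, was at 1.07 and 1.27 FPKM with Flag-OGT, against 0.2 and 0.2 FPKM in controls of MHCC-97H, and at 0.4 and 0.41 FPKM with Flag-OGT, against 0.13 and 0.27 FPKM in controls of MHCC-97L. The part of these markers was not tested.

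Because the receptors changed unequally, the makeup of the alpha pool was different in each state. The 3 laminin-binding genes held 14.8% and 14.6% of the summed alpha FPKM in MHCC-97H cells with Flag-OGT, against 64.3% and 62.1% in the controls, and 12.6% and 13% in the MHCC-97L Flag-OGT libraries, against 69% and 69.2% in the controls. The RGD-binding genes held 70.6% and 70.9% with Flag-OGT, against 28.1% and 29.7% in controls of MHCC-97H, and 71.7% and 68.1% with Flag-OGT, against 24% and 24.1% in controls of MHCC-97L. ITGA5 was the leading alpha gene with Flag-OGT in both lines, and the ratio of ITGA5 to ITGA3 FPKM was 9.5 to 10.1 in the 4 Flag-OGT libraries, against 0.307 to 0.514 in the 4 controls. The pool itself was smaller. All alpha genes together came to 48.8 and 48.3 FPKM with Flag-OGT, against 213 and 212 FPKM in controls of MHCC-97H, and to 40.9 and 38 FPKM with Flag-OGT, against 177 and 176 FPKM in controls of MHCC-97L. All beta genes together came to 34 and 34.2 FPKM with Flag-OGT, against 325 and 322 FPKM in controls of MHCC-97H, and to 28.6 and 29.8 FPKM with Flag-OGT, against 206 and 215 FPKM in controls of MHCC-97L. Shares are of FPKM, a level per transcript length, and say nothing of how subunits paired at the surface.

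**Figure D2:**
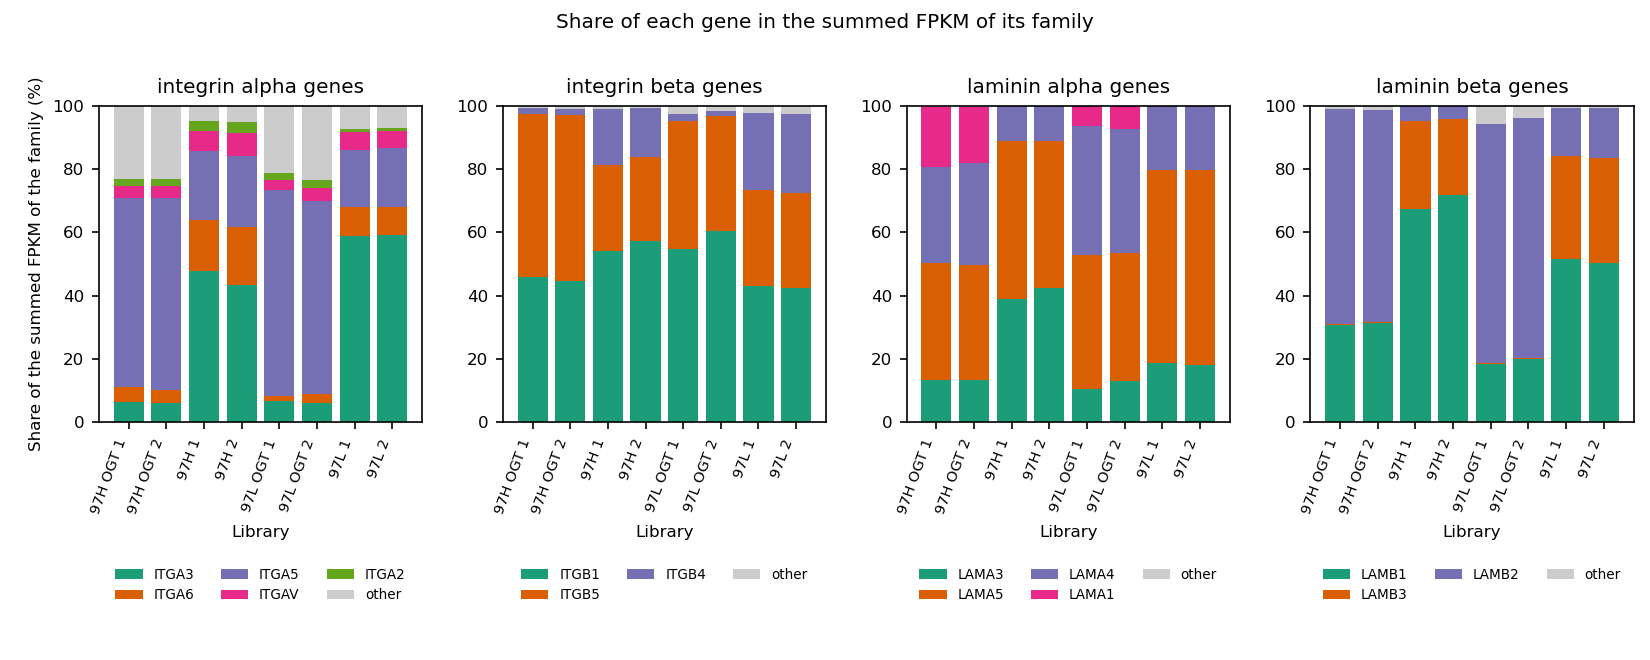
Share (%) of single genes in the summed FPKM of the integrin alpha, integrin beta, laminin alpha and laminin beta genes, with 1 stacked bar per library and the Flag-OGT libraries left of the controls of their line. ITGA5 takes the largest share of the alpha pool in the 4 Flag-OGT libraries and ITGA3 in the 4 controls, and LAMB2 exceeds LAMB1 in the 4 Flag-OGT libraries and is below it in the 4 controls.

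The 4 collagen-binding alpha genes, all partners of ITGB1, were low in every library. ITGA2, the epithelial and platelet collagen receptor chain, was at 0.99 and 1.18 FPKM with Flag-OGT, against 6.62 and 7.83 FPKM in controls of MHCC-97H, the highest values of the class. MHCC-97L had 0.91 and 1.01 FPKM with Flag-OGT, against 1.73 and 1.75 FPKM in controls. It fell 6.66-fold in MHCC-97H and 1.81-fold in MHCC-97L (adjusted p = 7.6e-09 and 4.7e-04), with no overlap of groups. ITGA10, known from cartilage, was at 0.11 and 0.09 FPKM with Flag-OGT, against 1.81 and 1.88 FPKM in controls of MHCC-97H, and at 0.41 and 0.4 FPKM with Flag-OGT, against 1.44 and 1.27 FPKM in controls of MHCC-97L. ITGA11, a fibrillar collagen receptor chain of fibroblasts, was at 0.06 and 0.07 FPKM with Flag-OGT, against 2.03 and 2.27 FPKM in controls of MHCC-97H, and at 0.14 and 0.12 FPKM with Flag-OGT, against 2.89 and 2.56 FPKM in controls of MHCC-97L. Both genes fell in both lines, with log2 changes of -1.37 and -0.74 for ITGA10 and of -1.56 and -1.72 for ITGA11 in MHCC-97H and MHCC-97L. ITGA1, a receptor chain for basement membrane collagen, was called in opposite directions. It was at 0.98 and 1.15 FPKM with Flag-OGT, against 1.97 and 2.08 FPKM in controls of MHCC-97H (-0.55 ± 0.07, adjusted p = 3.9e-05), and at 0.65 and 0.72 FPKM with Flag-OGT, against 0.45 and 0.45 FPKM in controls of MHCC-97L (0.22 ± 0.07, adjusted p = 0.017). The MHCC-97L call was lost with FPKM rescaled to a common sum (adjusted p = 0.0544), with median-of-ratios scaling (adjusted p = 0.0901), with quantile normalization (adjusted p = 0.204), and without MHCC-97L Flag-OGT library 2 (adjusted p = 0.0682), control library 1 (adjusted p = 0.0581) or control library 2 (adjusted p = 0.0583).

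The leukocyte integrin genes were low in every library. ITGAM, the alpha chain of a complement receptor of myeloid cells, was at 0.03 and 0.01 FPKM with Flag-OGT, against 1.3 and 0.87 FPKM in controls of MHCC-97H, and at 0 and 0.05 FPKM with Flag-OGT, against 1.9 and 2.04 FPKM in controls of MHCC-97L. It fell in both lines (-1.02, adjusted p = 3.0e-06, and -1.53, adjusted p = 1.3e-07). Its partner ITGB2 was not tested and reached at most 1.44 FPKM, in an MHCC-97L control. The 11 leukocyte marker genes with values moved the same way, with sums of 6.23 and 5.6 FPKM with Flag-OGT, against 82.3 and 80.5 FPKM in controls of MHCC-97H, and 14.8 and 13.8 FPKM with Flag-OGT, against 69.7 and 70.3 FPKM in controls of MHCC-97L. Most of the control sums was CD68, a lysosomal protein gene, at 63.43 to 79.8 FPKM in controls, while PTPRC, which marks all leukocytes, was at 0.15 to 0.64 FPKM across the 8 libraries. CORO1A was higher with Flag-OGT in both lines (0.54 and 1.12), and LYZ was called in MHCC-97L (0.10, adjusted p = 0.521 in MHCC-97H and 0.60, adjusted p = 1.9e-03 in MHCC-97L). The part of these markers in the result was not tested. ITGAE, whose product pairs with ITGB7 and binds E-cadherin, was at 1.94 and 1.88 FPKM with Flag-OGT, against 1.95 and 2.15 FPKM in controls of MHCC-97H (-0.07, adjusted p = 0.441). That difference was called with median-of-ratios scaling (-0.21, adjusted p = 0.022) and with quantile normalization (-0.33, adjusted p = 1.6e-03). In MHCC-97L ITGAE was at 3.13 and 3.65 FPKM with Flag-OGT, against 2.29 and 2.32 FPKM in controls, a rise of 0.41 ± 0.08 (adjusted p = 7.2e-04).

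The 12 members that did not reach the filter were ITGA4, ITGA8, ITGA9, ITGAD, ITGAL, ITGAX, ITGB2, ITGB3, ITGB6, ITGB8, LAMA2 and LAMB4, with values from 0 to 1.44 FPKM. ITGB2 and ITGAX were nearest to the filter from below, with means of 0.4 and 0.439 FPKM over the 8 libraries, and ITGAM and ITGA2B nearest from above, with 0.775 and 0.87 FPKM. ITGA4 and ITGA9, closely related alpha chains that bind VCAM1 and tenascin, were seen with Flag-OGT. ITGA4 was at 1.2 and 1.1 FPKM in MHCC-97H cells with Flag-OGT and at 0.09 and 0.13 FPKM in MHCC-97L cells with Flag-OGT, and was listed at 0 in all 4 controls. ITGA9 was at 1.28 and 1.15 FPKM and at 0.34 and 0.25 FPKM in the same libraries, and at 0 to 0.01 FPKM in the controls.

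The laminin genes separated into chains that were lower and chains that were higher with Flag-OGT. Of the 10 tested, MHCC-97H had 5 higher and 5 lower, and MHCC-97L had 3 higher, 4 lower and 3 not called. Of all tested genes, 48.2% were higher and 36.3% lower in MHCC-97H, and 50.1% and 34.7% in MHCC-97L. LAMA1 and LAMC3 reached the filter in Flag-OGT libraries alone, and LAMB3, among others, in controls alone, so that the filter favoured these directions. LAMA3 and LAMB3, chains of the epithelial laminin of hemidesmosomes, fell in both lines. LAMB3 was at 0.1 and 0.13 FPKM with Flag-OGT, against 17.99 and 16.19 FPKM in controls of MHCC-97H, and at 0.04 and 0.03 FPKM with Flag-OGT, against 14.56 and 14.62 FPKM in controls of MHCC-97L. Its log2 change was -4.02 ± 0.07 in MHCC-97H and -3.91 ± 0.07 in MHCC-97L (adjusted p = 1.1e-11 and 1.5e-11), the largest fall of a laminin gene in either line. LAMA3 was at 3.84 and 3.87 FPKM with Flag-OGT, against 14.1 and 13.27 FPKM in controls of MHCC-97H, and at 1.76 and 2.06 FPKM with Flag-OGT, against 6.37 and 6.42 FPKM in controls of MHCC-97L. The fall was 3.55-fold in MHCC-97H and 3.35-fold in MHCC-97L (adjusted p = 9.5e-09 and 4.2e-08).

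**Figure D3:**
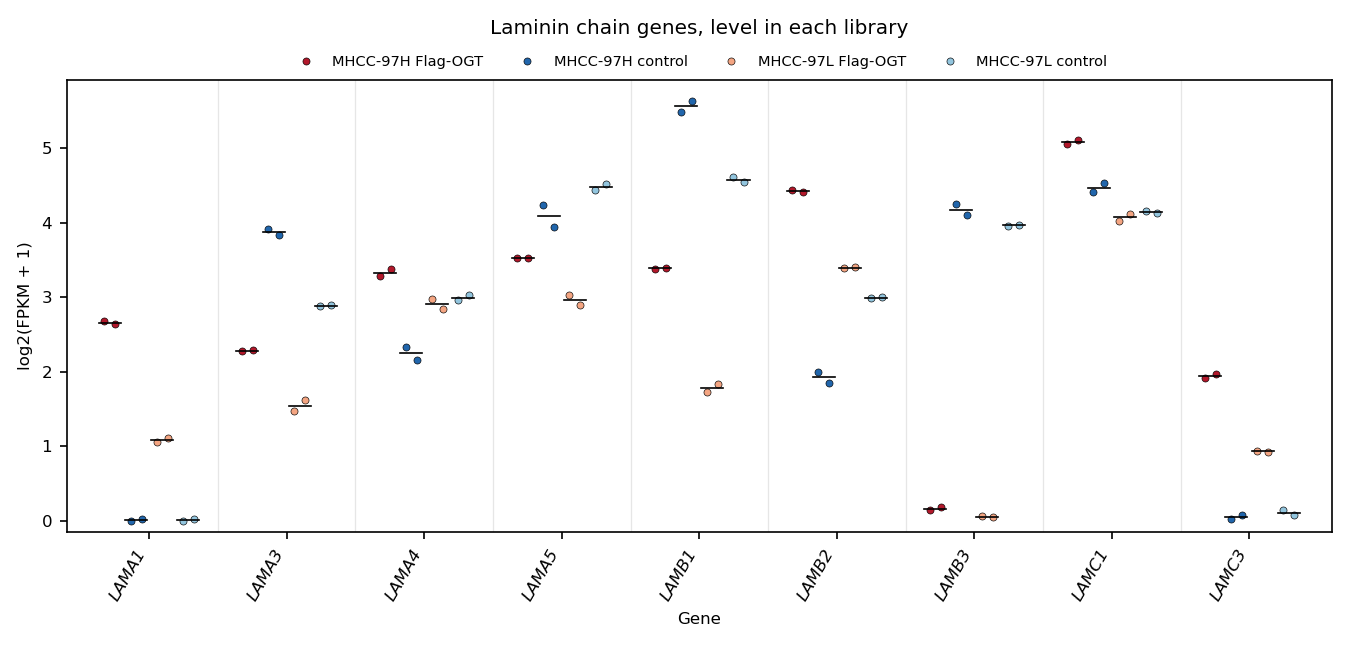
Level of 9 of the 10 tested laminin genes as log2(FPKM + 1) in all 8 libraries, with 1 point per library, a bar at the mean of each group, and the Flag-OGT group left of its control for each line. LAMB1 and LAMB3 are lower and LAMA1, LAMB2 and LAMC3 higher with Flag-OGT in both lines.

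The beta chains were exchanged in their order. LAMB1 and LAMB2 are alternative beta chains of laminins with a LAMC1 arm, LAMB1 in most epithelia and LAMB2 in muscle, kidney and nerve basement membranes. LAMB1 was at 9.36 and 9.52 FPKM with Flag-OGT, against 43.95 and 48.48 FPKM in controls of MHCC-97H, and at 2.31 and 2.56 FPKM with Flag-OGT, against 23.36 and 22.38 FPKM in controls of MHCC-97L. LAMB2 was at 20.67 and 20.28 FPKM with Flag-OGT, against 3 and 2.61 FPKM in controls of MHCC-97H, and at 9.44 and 9.62 FPKM with Flag-OGT, against 6.96 and 6.98 FPKM in controls of MHCC-97L. LAMB2 stood above LAMB1 in each Flag-OGT library and below it in each control. The ratio of LAMB2 to LAMB1 FPKM was 2.21 and 2.13 with Flag-OGT, against 0.0683 and 0.0538 in controls of MHCC-97H, and 4.09 and 3.76 with Flag-OGT, against 0.298 and 0.312 in controls of MHCC-97L. LAMB1 fell 4.9-fold and 9.39-fold in MHCC-97H and MHCC-97L (adjusted p = 6.3e-10 and 1.2e-10), and LAMB2 rose 7.3-fold and 1.37-fold (adjusted p = 2.0e-10 and 3.0e-04).

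Among the alpha chains, LAMA1 and LAMA5 moved in opposite directions. LAMA1, the alpha chain of the earliest embryonic basement membranes, was at 5.41 and 5.22 FPKM with Flag-OGT, against 0 and 0.01 FPKM in controls of MHCC-97H, and at 1.07 and 1.15 FPKM with Flag-OGT, against 0 and 0.01 FPKM in controls of MHCC-97L. It rose in both lines (2.65 ± 0.07, adjusted p = 1.0e-10, and 1.07 ± 0.07, adjusted p = 1.1e-07). LAMA5, the alpha chain of most mature epithelial basement membranes, was at 10.48 and 10.56 FPKM with Flag-OGT, against 17.88 and 14.4 FPKM in controls of MHCC-97H, and at 7.15 and 6.42 FPKM with Flag-OGT, against 20.71 and 21.88 FPKM in controls of MHCC-97L. It fell 1.53-fold and 3.14-fold (adjusted p = 2.5e-04 and 1.2e-07). LAMA4, the alpha chain of vessel and muscle basement membranes, was at 8.7 and 9.36 FPKM with Flag-OGT, against 4.03 and 3.46 FPKM in controls of MHCC-97H, a 2.41-fold rise (adjusted p = 5.8e-07). MHCC-97L had 6.87 and 6.16 FPKM with Flag-OGT, against 6.81 and 7.13 FPKM in controls, and here the groups overlapped (-0.09, adjusted p = 0.347; -0.27, adjusted p = 0.0168 with median-of-ratios scaling). The 8 endothelial marker genes summed to 1.32 and 1.27 FPKM with Flag-OGT, against 33.8 and 33.6 FPKM in controls of MHCC-97H, and to 2.25 and 2.35 FPKM with Flag-OGT, against 46.7 and 44.5 FPKM in controls of MHCC-97L. Of the 3 that were tested, ESAM fell by 4.15 and 4.19 on the log2 scale, and PECAM1 (-2.31 and -2.66) and KDR (-1.70 and -0.61) fell as well. PECAM1 and KDR reached 0.5 FPKM in controls alone, so that the filter favoured their fall. CDH5, which defines endothelium, was listed at 0 in the 4 Flag-OGT libraries and was at 0 to 0.06 FPKM in the controls. The tight junction gene CLDN5, which was not tested, was at 0.35 to 0.44 FPKM with Flag-OGT, against 0 to 0.04 FPKM in controls.

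Of the gamma chains, LAMC1, which is part of most laminins, was the most abundant laminin gene with Flag-OGT. It was at 32.15 and 33.65 FPKM with Flag-OGT, against 20.3 and 22.03 FPKM in controls of MHCC-97H, a 1.55-fold rise (0.61 ± 0.06, adjusted p = 7.0e-06). MHCC-97L had 15.25 and 16.39 FPKM with Flag-OGT, against 16.79 and 16.51 FPKM in controls (-0.07, adjusted p = 0.322). This difference was called with FPKM rescaled to a common sum (-0.18, adjusted p = 0.0264) and with median-of-ratios scaling (-0.27, adjusted p = 1.9e-03). LAMC3, a chain known from brain, retina and kidney, was at 2.76 and 2.92 FPKM with Flag-OGT, against 0.01 and 0.05 FPKM in controls of MHCC-97H, and at 0.91 and 0.9 FPKM with Flag-OGT, against 0.1 and 0.05 FPKM in controls of MHCC-97L. It rose in both lines (1.90 and 0.83, adjusted p = 1.5e-09 and 1.1e-06). LAMB1 and LAMB4 are next to each other in RefSeq gene order, with 0 coding genes between them, and 1 coding gene lies between ITGA1 and ITGA2.

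The laminin chains with the largest called changes shared by both lines were LAMB3, LAMB1, LAMA1 and LAMA3, and promoter windows are shown for LAMA3, LAMB3 and LAMB1, all of which fell. Each is 300 bases from RefSeq on GRCh38.p14, 250 before and 50 after the annotated start, written 5′ to 3′ on the strand of the gene. The motif TGANTCA, the site bound by AP-1 factors, which are known regulators of epithelial laminin genes, was searched on both strands, and its matches are in capitals. LAMB3 has 3 annotated starts, of which 1 with and 1 without a match are given.
LAMA3, chr18:23872770-23873069, plus strand: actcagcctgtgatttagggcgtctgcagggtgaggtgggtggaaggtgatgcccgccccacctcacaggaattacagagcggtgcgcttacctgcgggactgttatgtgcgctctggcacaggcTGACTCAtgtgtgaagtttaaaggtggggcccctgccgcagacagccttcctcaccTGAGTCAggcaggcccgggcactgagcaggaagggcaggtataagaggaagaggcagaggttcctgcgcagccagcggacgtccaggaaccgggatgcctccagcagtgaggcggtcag
LAMB3, start with the match, chr1:209651325-209651624, minus strand: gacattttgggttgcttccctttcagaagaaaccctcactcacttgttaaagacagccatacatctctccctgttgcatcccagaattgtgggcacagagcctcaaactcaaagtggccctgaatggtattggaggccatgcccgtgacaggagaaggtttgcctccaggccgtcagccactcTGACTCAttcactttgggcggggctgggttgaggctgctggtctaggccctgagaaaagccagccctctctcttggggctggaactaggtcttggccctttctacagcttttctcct
LAMB3, start without a match, chr1:209652280-209652579, minus strand: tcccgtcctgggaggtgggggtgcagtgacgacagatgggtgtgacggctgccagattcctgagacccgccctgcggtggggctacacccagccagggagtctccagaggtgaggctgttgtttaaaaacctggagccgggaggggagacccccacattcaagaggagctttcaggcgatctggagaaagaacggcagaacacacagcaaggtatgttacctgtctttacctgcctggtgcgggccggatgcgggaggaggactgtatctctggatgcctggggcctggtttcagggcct
LAMB1, chr7:108003112-108003411, minus strand: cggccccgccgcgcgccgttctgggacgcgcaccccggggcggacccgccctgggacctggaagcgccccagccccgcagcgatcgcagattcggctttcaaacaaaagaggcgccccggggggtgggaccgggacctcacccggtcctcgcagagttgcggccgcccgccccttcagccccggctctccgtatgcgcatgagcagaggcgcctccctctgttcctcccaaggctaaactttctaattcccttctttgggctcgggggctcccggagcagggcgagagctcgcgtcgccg
The LAMA3 window held 2 matches, TGACTCA and TGAGTCA, beginning 125 and 69 bases before the start, and 1 LAMB3 window held TGACTCA beginning 67 bases before the start. The LAMB1 window held none. Promoter windows were at hand for 26 of the 38 members, 33 windows in all, and the only other match was TGAGTCA in the ITGA5 window, beginning 6 bases before the start. The motif was thus in 3 of 33 member windows (9.09%) and in 2707 of all 35116 windows (7.71%). A match describes the letters of the window and shows no binding.

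The changes of the 2 lines can be set side by side, and their difference was tested as the change in MHCC-97H minus the change in MHCC-97L. Of the 26 members, 11 had a higher and 9 a lower change in MHCC-97H, while 63.3% of all tested genes were called, 33.9% higher and 29.4% lower. LAMB2 differed most, with a change of 2.50 in MHCC-97H and of 0.40 in MHCC-97L (difference 2.10 ± 0.10, adjusted p = 1.8e-07). LAMA1 followed with a difference of 1.58 ± 0.09 (adjusted p = 7.2e-07), LAMA4 with 1.17 ± 0.12 (adjusted p = 2.2e-05) and LAMC3 with 1.07 ± 0.10 (adjusted p = 1.1e-05), all of them with the higher change in MHCC-97H. ITGA2 and ITGB1 fell further in MHCC-97H, with differences of -1.49 ± 0.12 and -1.11 ± 0.09 (adjusted p = 6.4e-06 and 7.6e-06). For ITGB4, LAMB3 and ITGA11, which fell steeply in both lines, the differences were 0.05 ± 0.13, -0.11 ± 0.10 and 0.16 ± 0.11 (adjusted p = 0.769, 0.387 and 0.221).

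**Figure D4:**
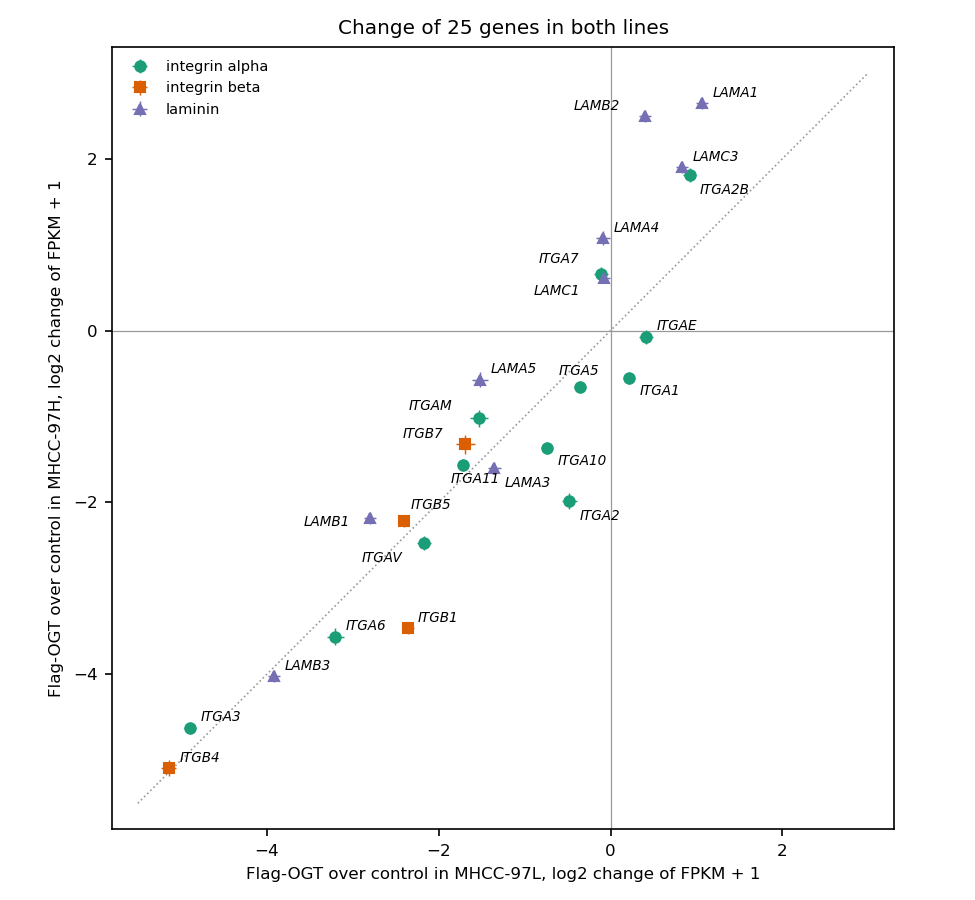
Log2 change of FPKM + 1, Flag-OGT over control, of 25 of the 26 tested genes in MHCC-97H (vertical) and MHCC-97L (horizontal), with bars of 1 SE and a dotted line of equal change. ITGA3 (-4.62 and -4.89), ITGB4 and LAMB3 lie near the line at the lower left, and LAMB2 (2.50 and 0.40) and LAMA4 (1.08 and -0.09) lie well above it.

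Between the lines without Flag-OGT, MHCC-97H controls had 13 members higher and 7 lower than MHCC-97L controls, while 65.4% of all tested genes were called, 26.5% higher and 38.9% lower. ITGA1 and ITGA2 were 4.5-fold and 4.15-fold higher in MHCC-97H controls (adjusted p = 1.2e-06 and 3.4e-07). ITGA6, LAMA3, LAMB1 and ITGB1 were 2.28-fold, 2.14-fold, 2.02-fold and 2-fold higher (log2 differences 1.14, 0.99, 0.98 and 0.99). LAMB2, ITGB7 and LAMA4 were lower in MHCC-97H controls, with log2 differences of -1.07, -0.80 and -0.75 (adjusted p = 8.5e-07, 1.1e-04 and 3.2e-05). ITGA3 and ITGB4 had differences of -0.10 ± 0.07 and 0.06 ± 0.09 (adjusted p = 0.237 and 0.588).

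With Flag-OGT in both, MHCC-97H had 14 members higher and 4 lower than MHCC-97L, while 69.7% of all tested genes were called, 33.6% higher and 36.1% lower. Of the 10 tested laminin genes, 8 were higher in MHCC-97H Flag-OGT libraries, led by LAMB1 (1.60 ± 0.07, adjusted p = 1.1e-07) and LAMA1 (1.58 ± 0.07, adjusted p = 9.1e-08), while LAMB3 was not called (0.11 ± 0.07, adjusted p = 0.212). LAMB3 was near 0 here, at 0.1 and 0.13 FPKM in MHCC-97H and 0.04 and 0.03 FPKM in MHCC-97L. It was called higher in MHCC-97H with 0.1 instead of 1 added to FPKM (0.67, adjusted p = 1.5e-03). The fit of these 2 groups alone called it as well (0.11, adjusted p = 0.0384). ITGB1 and ITGA2, which stood apart between the controls, had differences of -0.12 ± 0.07 and 0.09 ± 0.09 here (adjusted p = 0.144 and 0.395). The order of the lines was turned for LAMB2, LAMA4 and LAMA5, which were lower in MHCC-97H than in MHCC-97L among controls and higher among Flag-OGT libraries, LAMB2 by 2.15-fold (1.03 ± 0.07, adjusted p = 1.0e-06), and the other way for ITGA10. The lower LAMA5 in MHCC-97H controls (-0.39, adjusted p = 5.0e-03) was not called with median-of-ratios scaling (adjusted p = 0.0621).

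Genes that act with these subunits were counted from lists of known partners. All counts in these lists stand beside 48.2% higher and 36.3% lower of all tested genes in MHCC-97H, and 50.1% higher and 34.7% lower in MHCC-97L. Of 35 tested integrin activators and adaptors, 25 fell and 7 rose in MHCC-97H, while 24 fell and 7 rose in MHCC-97L, with medians of -0.99 and -0.94. Of the 29 that reached 0.5 FPKM in both states, 21 fell and 6 rose in MHCC-97H, and 20 fell and 6 rose in MHCC-97L. FERMT3, the kindlin of blood cells that activates beta tails, was at 0.29 and 0.39 FPKM with Flag-OGT, against 109.77 and 93.42 FPKM in controls of MHCC-97H, and at 1.81 and 1.4 FPKM with Flag-OGT, against 104.58 and 108.03 FPKM in controls of MHCC-97L. TES, a focal adhesion LIM protein gene, fell by 4.45 and 4.12 on the log2 scale in MHCC-97H and MHCC-97L. The widely expressed kindlin FERMT2 rose instead, at 10.43 and 9.58 FPKM with Flag-OGT, against 5.17 and 5.91 FPKM in controls of MHCC-97H, and at 6.87 and 7.26 FPKM with Flag-OGT, against 2.85 and 2.72 FPKM in controls of MHCC-97L. TLN2, a talin, rose by 1.79 and 0.47, and ARHGEF7, an exchange factor of focal adhesions, by 1.40 and 0.95. Of 7 tested genes of integrin inactivation and traffic, 3 fell and 1 rose in MHCC-97H, while 4 fell and 1 rose in MHCC-97L. SNX17, which returns beta chains from endosomes to the surface, rose (0.84 and 0.51), and the endocytic adaptor gene DAB2 fell (-2.00 and -2.32), as did RAB21 (-1.17 and -0.89), a GTPase of integrin traffic, and SHARPIN (-0.25 and -1.20), an inhibitor of integrin activation.

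All 4 tested hemidesmosome partners fell in both lines (36.3% and 34.7% of all tested genes were lower), beside the fall of ITGA6, ITGB4, LAMA3 and LAMB3. Of the 4, COL17A1 reached 0.5 FPKM in controls alone, so that the filter favoured its fall. PLEC, which encodes plectin, was at 10.75 and 10.86 FPKM with Flag-OGT, against 184.99 and 151.66 FPKM in controls of MHCC-97H, and at 11.8 and 10.08 FPKM with Flag-OGT, against 173.44 and 185.86 FPKM in controls of MHCC-97L. COL17A1, the transmembrane collagen of hemidesmosomes, fell by 3.57 and 1.42, and CD151, a tetraspanin that binds ITGA3 and ITGA6 receptors, by 1.23 and 1.85 on the log2 scale.

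Of 16 tested genes of other basement membrane components, MHCC-97H had 13 higher and 2 lower with Flag-OGT, and MHCC-97L had 11 higher and 4 lower. Of these, 10 reached 0.5 FPKM only as a mean over the Flag-OGT libraries of both lines, so that the filter favoured a rise. All 10 rose in MHCC-97H and 9 in MHCC-97L. The exception, NPNT, was at 0.56 and 0.43 FPKM with Flag-OGT, against 0.67 and 0.78 FPKM in controls of MHCC-97L. The 6 that reached 0.5 FPKM in both states had 3 higher and 2 lower in MHCC-97H, and 2 higher and 3 lower in MHCC-97L. They were thus divided (48.2% and 50.1% of all tested genes were higher). COL4A1 and COL4A2 encode the main type IV collagen chains. COL4A1 was at 16.96 and 16.67 FPKM with Flag-OGT, against 0.02 and 0.02 FPKM in controls of MHCC-97H, and at 4.84 and 4.62 FPKM with Flag-OGT, against 0.03 and 0.02 FPKM in controls of MHCC-97L. COL4A2 rose by 3.95 and 3.24 and SMOC1, a calcium-binding matrix protein gene, by 4.87 and 4.44. The heparan sulfate proteoglycan genes HSPG2 (perlecan) and AGRN (agrin), which bind laminin, fell, with log2 changes of -0.90 and -0.51 in MHCC-97H and of -1.83 and -1.86 in MHCC-97L. The change was higher in MHCC-97H than in MHCC-97L for 14 of the 16, and the difference was not called for the other 2. The 9 fibroblast and stellate cell markers also summed higher with Flag-OGT, at 20.9 and 21.4 FPKM, against 9.14 and 12.2 FPKM in controls of MHCC-97H, and at 16 and 15.1 FPKM, against 4.67 and 5.45 FPKM in controls of MHCC-97L. ACTA2 and COL1A1 were the higher ones and LUM the lower one of the 3 that were tested. The first 2 reached 0.5 FPKM in Flag-OGT libraries alone and LUM in controls alone, so that the filter favoured these directions. ACTA2 by itself was at 15.16 and 16.01 FPKM with Flag-OGT in MHCC-97H and at 9.34 and 8.28 FPKM in MHCC-97L. The untested COL3A1 was at 0.9 and 0.98 FPKM with Flag-OGT, against 0.03 and 0.02 FPKM in controls of MHCC-97H. COL1A2 was at 0 to 0.04 FPKM in all 8 libraries, and the part of these markers in the result was not tested.

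Of the netrins, which share laminin domains, NTN1 rose (3.75 and 3.02) and NTNG2 rose (1.23 and 1.08), and NTN4, which can insert into laminin networks, fell (-3.92 and -3.32). Of 11 tested laminin receptors other than integrins, 4 fell and 6 rose in MHCC-97H, while 5 fell and 5 rose in MHCC-97L (48.2% and 50.1% of all tested genes were higher). Of the 9 that reached 0.5 FPKM in both states, 4 fell and 4 rose in MHCC-97H, and 5 fell and 3 rose in MHCC-97L. NTN1, NTNG2, SDC2 and DMD reached it in Flag-OGT libraries alone, so that the filter favoured their rise. SDC2 rose (3.47 and 3.39) and SDC1 fell (-2.27 and -4.07), as did SDC4 (-1.80 and -2.18), all 3 of them syndecans. DMD, which encodes dystrophin of the dystroglycan complex, rose (2.21 and 1.82), as did RPSA (2.11 and 2.05), a ribosomal protein gene also named as a laminin receptor, whose many pseudogenes make its value uncertain. Of 23 tested integrin ligands of the matrix and cell surface, 17 fell and 3 rose in MHCC-97H, while 18 fell and 4 rose in MHCC-97L (medians -1.09 and -1.41), beside 36.3% and 34.7% of all tested genes lower. Of the 13 that reached 0.5 FPKM in both states, 9 fell and 1 rose in MHCC-97H, and 10 fell and 2 rose in MHCC-97L. FN1, which encodes fibronectin, the ligand of the ITGA5 receptor, was at 8.92 and 9.17 FPKM with Flag-OGT, against 734.6 and 770.79 FPKM in controls of MHCC-97H, and at 1.92 and 1.76 FPKM with Flag-OGT, against 703.63 and 680.02 FPKM in controls of MHCC-97L. SPP1, the gene of the RGD protein osteopontin, fell by 7.20 and 8.25 on the log2 scale. FBN2, a fibrillin with an RGD sequence, rose by 3.50 and 1.95, ICAM4, a red cell ligand, by 1.35 and 0.89, and TGFB3, whose latent form binds ITGAV receptors, by 0.94 and 1.19.

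**Figure D5:**
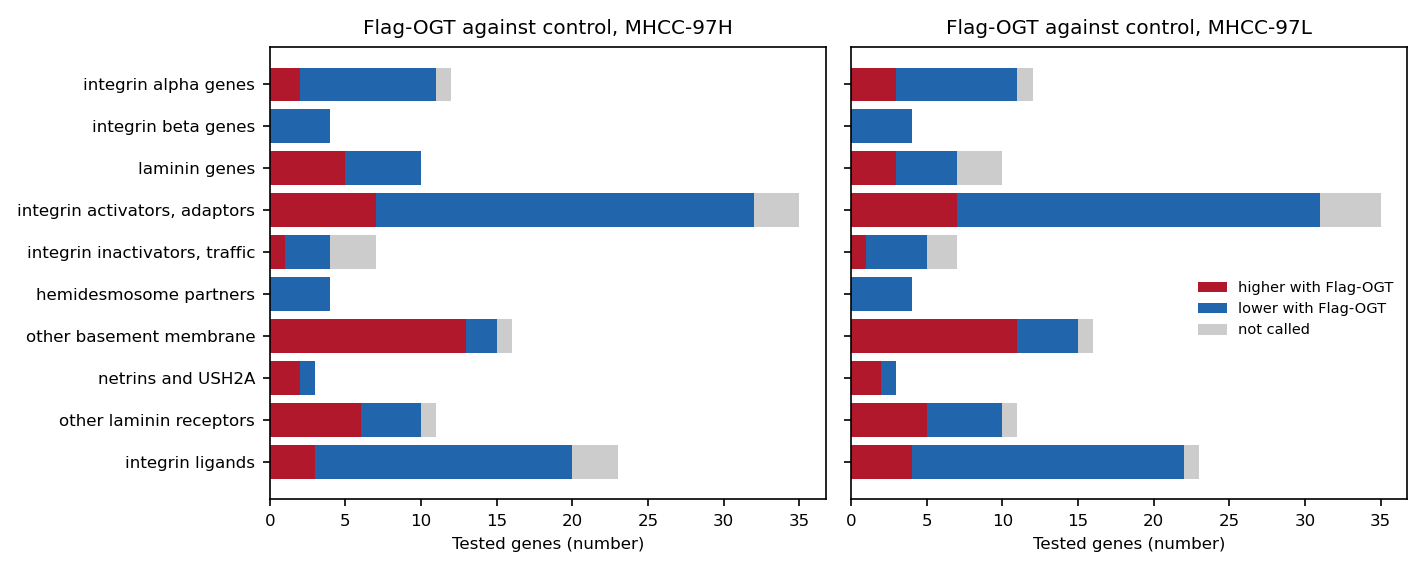
Number of tested genes that were higher, lower or not called with Flag-OGT in each gene group, for MHCC-97H (left) and MHCC-97L (right). Lower genes make up most of the integrin, adaptor and ligand bars, and higher genes most of the other basement membrane bar (13 of 16 in MHCC-97H and 11 of 16 in MHCC-97L). In that group 10 of the 16 reached the filter only as a mean over the Flag-OGT libraries of both lines. In controls alone, 8 of the 23 ligands, 5 of the 35 adaptors and ITGA10, ITGA11, ITGAM and ITGB7 reached it. In Flag-OGT libraries alone, 2 ligands, 1 adaptor and ITGA2B did. The filter favoured the direction of all these. Of all tested genes, 48.2% were higher and 36.3% lower in MHCC-97H, and 50.1% and 34.7% in MHCC-97L.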

How the data were processed

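RNA-seq of 8 libraries of human cell lines was used as the gene-level FPKM (fragments per kilobase, scaled to library size) table deposited by the authors, with values to 2 decimals. Per the labels' protocols, extraction used Trizol and cDNA a SMARTer kit. Per the submitters' processing notes, Bowtie2, HISAT2 2.1.0, RSEM 1.2.4, DESeq2 1.18.1 and hg19 were used; the sources used here do not say which of them made the FPKM, and read depth is unknown. Summed FPKM per library was 510449 to 613101.

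Of 18928 features, 26 with symbols turned into dates (at most 0.1% of FPKM) were left out, and 55 with a number for a symbol were kept unnamed. Genes with a mean of at least 0.5 FPKM, 13553 in number, were fitted as log2(FPKM + 1) with 4 group means, 4 residual degrees of freedom and a mean-variance trend in limma 3.58.1 (R 4.3.3). Each of 5 comparisons had its p-values adjusted by Benjamini-Hochberg over all 13553 genes, with calls under 0.05. The Flag-OGT comparisons share their libraries with the difference and the line comparisons. The procedure was tested on simulated data.

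The members and lists were chosen with earlier results of these data known. Members at or over the filter were given with every library's value, except 1 that is counted in totals but not reported here; of each other list, the called genes with the 2 highest and 2 lowest changes were named, as were markers of other cell types at or over the filter. GP1BA, CDH5, CLDN5, PTPRC, COL1A2, COL3A1, HNF4A and NPNT fall outside this rule and were picked with their values in view. Promoters came from RefSeq, GRCh38.p14. Other settings tried were a filter of 2 FPKM, no filter, a pseudocount of 0.1, 3 other scalings, no trend, a fit of the 2 groups alone, a replicate block and each library left out. Tables and figures used Python 3.11.15, pandas 2.3.3, numpy 2.4.6 and matplotlib 3.10.9.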

Additional observations from a re-analysis of the deposited data

Results flagged for a closer look

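For 20 of the 26 tested genes, 19 of which are given here, the change with Flag-OGT differed between the lines, by limma's test of the difference itself (MHCC-97H change minus MHCC-97L change, log2, Benjamini-Hochberg adjusted p under 0.05), beside 63.3% of all tested genes. Laminin genes whose change was higher in MHCC-97H were LAMB2 (2.10), LAMA1 (1.58), LAMA4 (1.17), LAMC3 (1.07), LAMA5 (0.95), LAMC1 (0.68) and LAMB1 (0.62). For LAMB1 and LAMA5 a higher value means a smaller fall. Integrin genes whose change was higher in MHCC-97H were ITGA2B (0.89), ITGA7 (0.77), ITGAM (0.51) and ITGA3 (0.27). Those whose change was lower were ITGA2 (-1.49), ITGB1 (-1.11), ITGA1 (-0.77), ITGA10 (-0.63), ITGAE (-0.47), ITGA6 (-0.36), ITGAV (-0.30) and ITGA5 (-0.29). The calls of ITGA3, ITGA6, ITGAM and ITGAV were lost under other settings. For ITGA6 the fold fall of mean FPKM was the larger in MHCC-97L (18.6-fold, against 16.8-fold in MHCC-97H). ITGA1 was called lower in MHCC-97H and higher in MHCC-97L.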

How the results depend on the processing

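In the 2 comparisons of Flag-OGT with control, 850 of the 864 values of members under an alternative kept their direction and their side of the threshold. With no filter, all 38 members were tested. Then 13 were higher and 21 lower with Flag-OGT in MHCC-97H, and 11 and 20 in MHCC-97L. Of the 18536 genes tested in that setting, 7527 were higher and 5345 lower in MHCC-97H, and 7918 and 5436 in MHCC-97L. With a filter of 2 FPKM, 16 instead of 26 members were tested, and 15 were called in MHCC-97H, 14 in MHCC-97L, 12 for the difference, 13 between controls and 11 between Flag-OGT lines. The difference for ITGA6 turned sign at a pseudocount of 0.1 (0.08, adjusted p = 0.766, against -0.36). Its mean FPKM fell 16.8-fold in MHCC-97H and 18.6-fold in MHCC-97L, so the order of the lines depended on the pseudocount. The difference for ITGAM was lost at a pseudocount of 0.1 (adjusted p = 0.0847) and with quantile normalization (0.105), that of ITGA3 with no filter (0.0554), median-of-ratios scaling (0.0875) and quantile normalization (0.273), that of ITGA6 with no filter (0.0819) and that of ITGAV at a pseudocount of 0.1 (0.21) and with no filter (0.068). With 1 library left out, 25, 21 to 22, 16 to 21, 18 to 20 and 16 to 19 members were called in the same order, and the lone library was then assumed to vary like the others. The differences for ITGA3 (adjusted p = 0.0614 to 0.12 when lost) and ITGAV (0.0554 to 0.133) were lost without any library but MHCC-97H control 1 or MHCC-97L Flag-OGT 1, that of ITGA6 (0.0743 to 0.146) without any but these and MHCC-97H Flag-OGT 1, and that of ITGA5 without MHCC-97H Flag-OGT library 1 or 2, MHCC-97L Flag-OGT library 1 or MHCC-97L control library 1 (adjusted p = 0.0574 to 0.0668). Between controls, the calls of ITGA11 and LAMB3 were lost without control 1 of either line, and that of LAMB3 also without MHCC-97L control 2 (adjusted p = 0.0867 to 0.16). Between Flag-OGT lines, the call of ITGA5 was lost without either MHCC-97H or the second MHCC-97L Flag-OGT library (0.0551 to 0.0828), and that of ITGAV in 5 cases (0.0643 to 0.231).

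The median change of all tested genes was 0.15 in MHCC-97H and 0.19 in MHCC-97L, and 0.00 and 0.02 with median-of-ratios scaling. With Flag-OGT, 6537 genes were higher and 4923 lower in MHCC-97H, and 6792 and 4702 in MHCC-97L, but 5695 and 5758, and 5787 and 5625, with median-of-ratios scaling, 5944 and 5570, and 6681 and 4783, with quantile normalization, and 6302 and 5132, and 6222 and 5208, with a common sum. Between controls, 3589 genes were higher in MHCC-97H and 5270 lower, but 4674 and 4230 with a common sum, 4937 and 4106 with median-of-ratios scaling and 4502 and 4018 with quantile normalization. Between Flag-OGT lines they were 4551 and 4894, but 5932 and 3547 with a common sum and 5679 and 3760 with median-of-ratios scaling. Replicate numbers were shared by label only, and deviations of same-numbered libraries from their group means correlated at -0.206 to 0.309 over the 6 pairs of groups. With a replicate block 25, 22, 19, 20 and 18 members were called, ITGAV losing its call for the difference (adjusted p = 0.0503) and between Flag-OGT lines (adjusted p = 0.0584), where ITGA3 gained it (adjusted p = 0.0384). The fit of 2 groups alone cannot give the difference. Read depth is unknown, so the precision of low values, such as those of the 12 untested members, could not be set.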
